A study of Rattus norvegicus with 10 samples.

Results

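The interferon response genes examined here are 35 listed symbols that cover interferon-responsive transcription factors, nucleic acid sensors, antiviral effectors, the antigen processing machinery and a few further interferon-stimulated genes. Rows of the deposited expression table were taken by gene symbol, and 34 of the 35 symbols were found. Tap2 is listed under 2 identifiers, so the set held 35 of the 32545 gene rows in the table. Xaf1 was not analysed here. Ifit1 fell below the expression filter, with 0 to 4 reads in each library, which left 34 rows for the test over all genes.

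RNA was sequenced from kidney of 5 male and 5 female PCK rats (PCK/CrljCrl-Pkhd1pck/Crl), with 1 library per rat, and the sexes were compared. Every rat carries the Pkhd1 mutation of this model of autosomal recessive polycystic kidney disease, none was treated, and no rat without cysts was part of the comparison. According to the methods the tissue was snap-frozen cortex, and the rats were littermates of 2 litters whose parents differed; the litter of each rat was not used here. The age is 10 to 12 weeks in the methods and 12 to 14 weeks in the design text. Expression is given as FPKM, reads scaled by gene length and by library size, so levels can be compared between genes per unit of length.

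Interferons are secreted signals that cells release when they detect foreign nucleic acid or, for interferon gamma, when T and NK lymphocytes are activated. Receptors for type I and type III interferons act through JAK kinases on a complex that holds Stat2 and Irf9 and binds the interferon-stimulated response element in promoters. Interferon gamma acts mainly on the gamma-activated site. The induced genes block viral replication, raise antigen presentation on MHC class I and feed back on the signal itself, and many of them have a basal level in unstimulated tissue.

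The letters recognised by these factors stood in most of the promoters that could be searched. RefSeq promoters of the build GRCr8, from 250 bases before to 50 bases after the gene start, were matched by symbol for 25 of the 34 symbols found. Isg15, Ifit1, Ifit2, Mx2, Ddx58, Dhx58, Usp18, Nlrc5 and Zbp1 had no match under these symbols. The core of the interferon-stimulated response element, GAAA repeated after any 2 letters, was searched on both strands and stood in 17 of the 25 promoters (68%), against 3.92% of 33469 promoters in the reference. The shorter form GAAANNGAA also stood in 17, against 9.71% of all promoters. The palindromic letters TTCNNNGAA of the gamma-activated site stood in 6 of 25 (24%), against 8.87% of all promoters. Only 1 of these 6 matches overlapped a match to the response element, in Bst2. Many of these genes are textbook targets of interferon, and a match is a description of the letters and does not show that a factor binds there.

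Stretches are printed for the genes whose values the results turn on (Gbp2, Parp14, Psmb10, Irf1 and Eif2ak2) and for Tap1 and Tap2. Others are those of the factors Irf7 and Irf9, and of Oas1a and Bst2, where 2 matches overlap. Each runs 5′ to 3′ on the strand of the gene, and capitals mark the match to the response element, or in Irf1 and Irf9 the match to the gamma-activated site. They lie on GRCr8 at chr2:234005681-234005720 (plus strand) for Gbp2, chr11:78408043-78408082 (plus) for Parp14, chr19:50743293-50743380 (minus) for Psmb10, chr20:4668640-4668679 (minus) for Tap1, chr20:4652313-4652352 (minus) for Tap2, chr1:205800068-205800107 (minus) for Irf7, chr12:41330410-41330455 (plus) for Oas1a, chr16:18255068-18255113 (minus) for Bst2, chr6:21941123-21941153 (plus) for Eif2ak2, chr10:38417778-38417816 (plus) for Irf1 and chr15:33065722-33065760 (plus) for Irf9.
Gbp2: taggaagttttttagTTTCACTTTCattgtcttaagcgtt
Parp14: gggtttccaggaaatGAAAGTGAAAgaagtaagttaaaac
Psmb10: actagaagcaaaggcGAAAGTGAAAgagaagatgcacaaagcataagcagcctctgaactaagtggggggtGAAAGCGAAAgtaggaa
Tap1: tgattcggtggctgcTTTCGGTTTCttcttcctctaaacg
Tap2: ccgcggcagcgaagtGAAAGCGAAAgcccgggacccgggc
Irf7: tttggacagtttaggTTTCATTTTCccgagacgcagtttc
Oas1a: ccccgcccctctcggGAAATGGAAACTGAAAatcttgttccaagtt
Bst2: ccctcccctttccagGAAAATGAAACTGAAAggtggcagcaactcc
Eif2ak2: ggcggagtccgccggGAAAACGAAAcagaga
Irf1: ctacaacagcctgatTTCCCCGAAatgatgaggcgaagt
Irf9: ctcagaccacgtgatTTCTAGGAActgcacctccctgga

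The 22 matches to the response element lay mostly close to the start, as the plot of motif positions shows. Of these, 20 began upstream of the start, and 12 of the genes had a match beginning in the last 100 bases before it. Psmb10, Oas1a, Bst2, Ifi27 and Ifi44 held 2 matches each. In Psmb10 they began 73 and 17 bases upstream, and in Oas1a 41 and 35 bases upstream. Both Irf1 and Irf9 held a gamma-activated site match and no match to the response element. Oas1a, Psmb8, Bst2 and Parp14 held both, which in Parp14 began 87 and 76 bases upstream. The promoters of Mx1, Oasl, Parp9, Psmb9, Stat2 and Trim25 held neither set of letters.

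**Figure D1:**
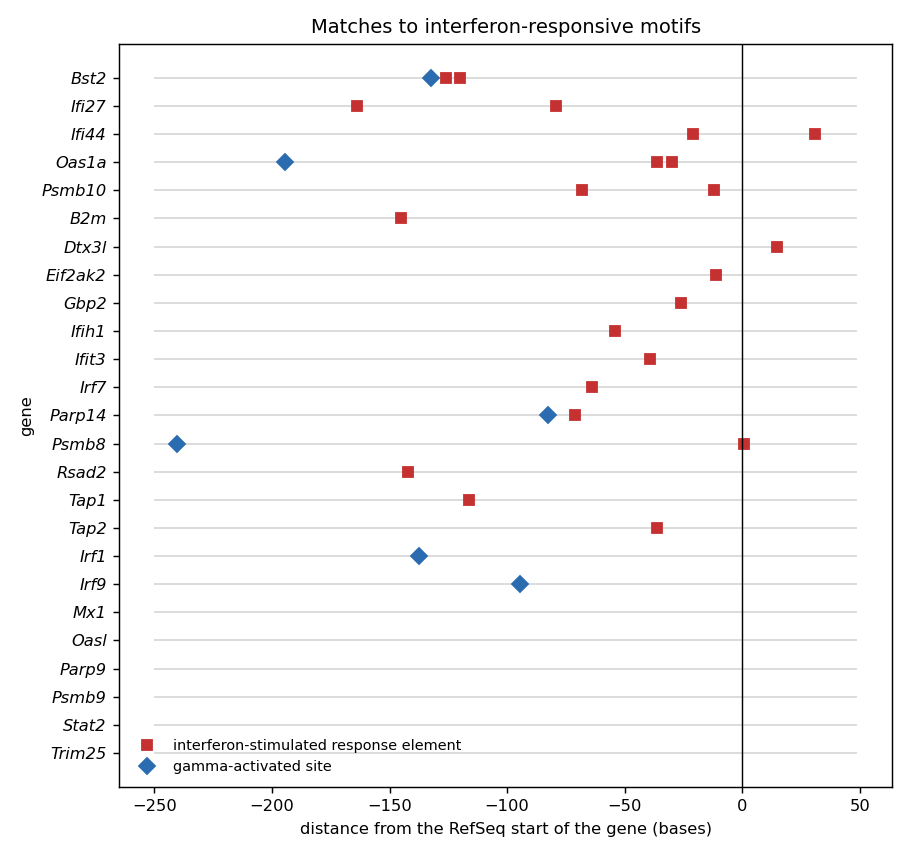
Matches to the 2 motifs in the RefSeq promoters of 25 interferon response genes, 1 row per gene, plotted by the distance of the centre of the match from the gene start in bases; red squares are the interferon-stimulated response element and blue diamonds the gamma-activated site. Of the 25 genes, 19 hold at least 1 match, and 20 of the 22 red squares begin upstream of the start.

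Several of the genes lie in clusters on the build Rnor_6.0, on which all expression values were computed. Within 500 kb of another member lay 12 of the gene rows. Psmb9 (chr20:3973420-3978845) and Tap1 (chr20:3979035-3989669) are divergent and only 190 bp apart, followed by Psmb8 (chr20:3990613-3993769) and, under ENSRNOG00000000455, Tap2 (chr20:3995544-4009587). Parp9 (chr11:67724076-67756799) and Dtx3l (chr11:67757928-67767622) are also divergent, with 1129 bp between them, and Parp14 (chr11:68105369-68137535) lies 337747 bp further on. Ifit1, Ifit2 and Ifit3 share a cluster on chromosome 1, and Mx1 and Mx2 lie 120467 bp apart on chromosome 11. Irf7 (chr1:214248837-214252456) overlaps Phrf1 on the opposite strand, which averaged 8.50 FPKM. Whether reads were counted by strand is not given in the sources used here, so the values of Irf7 are uncertain. The 2 Tap2 identifiers may share reads and are uncertain likewise, as are members of near-identical families such as Ifit and Oas.

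The libraries held 13912569 to 20285911 reads on genes in males and 14963924 to 19556707 in females. The tissue was checked on marker genes. Markers of proximal tubule, thick ascending limb, distal convoluted tubule, collecting duct and podocytes were read in all libraries except Pvalb, which was at 0 in all 10. Eif2s3y, on chromosome Y, was at 39.4 ± 5.95 FPKM (SD, n = 5) in males and 0.126 ± 0.127 FPKM in females. Mitochondrial genes took 14.3% to 26.8% of reads (highest in female 2).

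The basal level of the genes spanned from a few reads for Ifit1 to a mean of 575 FPKM for B2m. B2m, the light chain of MHC class I, stood highest, at 609.6 ± 80.2 FPKM in males against 539.5 ± 152 in females. Ifi27, an interferon-induced membrane protein, followed with means of 119 FPKM in both sexes (SD 20.2 in males and 40.8 in females). Psmb10 averaged 30.6 FPKM over the 10 libraries and Bst2 28.1 FPKM, while Oas1a averaged 0.749 FPKM and Zbp1 1.01 FPKM. Ifit1 stayed at the limit of detection, at 0 to 0.125 FPKM. In whole tissue, fewer cells of a type and less RNA per cell cannot be told apart.

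None of the 34 rows differed between the sexes under the thresholds of the study, which ask for an adjusted p (Benjamini-Hochberg) up to 0.05 together with a log2 fold change of 1 or more in size. Under the same limma fit, 1.32% of the 17631 genes tested passed, 0.618% higher and 0.698% lower in females. At the adjusted p alone 2.4% of all genes passed, 1.26% higher and 1.14% lower, and again 0 of the 34. The lowest adjusted p was 0.107, for Parp9 (limma). At an unadjusted p under 0.05, 5 of the 34 passed, all lower in females, against 8.07% of all genes lower and 7.67% higher. With limma-voom on the recovered reads, 0 passed the adjusted threshold and 7 of the 34 were lower at an unadjusted p under 0.05, where 11.2% of all genes were. For none of the rows were the FPKM of the sexes fully separate, while 5.1% of all genes were, 2.5% higher and 2.6% lower in females. Mean FPKM were also compared gene by gene with an exact permutation test (two-sided, smallest possible p 0.00794), whose p was 0.05 or less for 4 of the 34 rows, against 14.8% of all genes.

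Most fold changes were small and pointed to lower values in females. Fold changes are female over male, on the log2(FPKM + 0.1) scale, which understates the change of genes with few reads. Of the 34 rows, 28 (82.4%) had a negative fold change, where 51.2% of all genes did. Both shares depend on the scaling: 29 of the 34 were negative with scaling by total reads and with limma-voom, where 63.9% and 64.1% of all genes were, and 25 with quantile normalization, where 48.1% were. Without a change of scaling, their median was −0.16, against −0.01 over all genes, and 18 of the 34 lay within 0.2 of 0. The largest change in size was −0.59, and only the 95% intervals of Gbp2 and Psmb8 reached below −1, while none reached above 1. The genes share the same 10 libraries and are not independent of each other. Without female 4 the median was −0.09 and 23 of the 34 were negative.

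**Figure D2:**
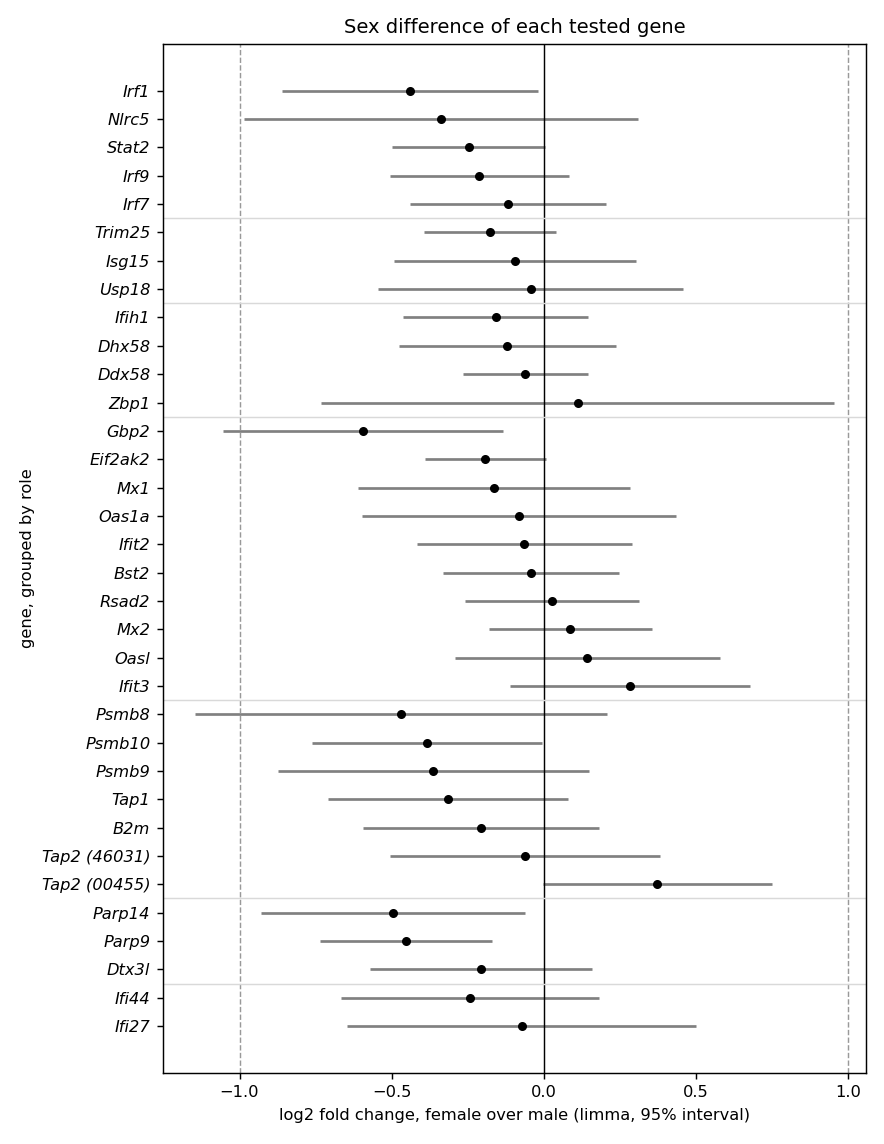
Log2 fold change of each of the 34 tested rows, female over male, with the 95% interval from limma, grouped by role; dashed lines mark a change of 1 in either direction. Points lie between −0.59 and 0.37, and 28 of 34 are to the left of 0.

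Among the transcription factors, all 5 had a negative fold change, with a median of −0.25 and no adjusted p under 0.296 (limma). Irf1 is itself induced by interferon gamma and drives antigen processing genes. It lay at 19.8, 14.9, 18.3, 16.2 and 24.3 FPKM in males 1 to 5 and at 16.2, 17.7, 15.1, 8.89 and 12.1 FPKM in females 1 to 5. The groups overlapped, with female 4 lowest and male 5 highest, and the fold change was −0.44 (SE 0.19, limma p = 0.0423, adjusted p = 0.296, exact permutation p = 0.0714). Stat2 and Irf9, parts of the complex that binds the response element, had close mean levels of 10.3 and 10.7 FPKM. Stat2 was at 11.2 ± 0.790 FPKM in males against 9.50 ± 1.49 in females (fold change −0.25, limma adjusted p = 0.329). Irf9 was at 11.4 ± 0.880 and 9.96 ± 1.84 FPKM (−0.21, limma adjusted p = 0.490). Irf7, which amplifies type I interferon production, was at 6.12 ± 0.317 FPKM in males against 5.74 ± 1.25 in females. Nlrc5, the transactivator of MHC class I genes, had the lowest level of the 5, at 1.23 ± 0.227 FPKM in males against 1.02 ± 0.458 in females, and in female 4 it was at 0.433 FPKM (fold change −0.34, SE 0.29, limma adjusted p = 0.644). All 5 factors were lowest in female 4, and without it their median was −0.10 with 4 of the 5 negative.

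The ISG15 system showed no difference beyond the spread between rats. Isg15 encodes a ubiquitin-like modifier, Usp18 the protease that removes it and Trim25 a ubiquitin ligase that activates the sensor encoded by Ddx58. Trim25 had the highest level, at 16.03 ± 1.44 FPKM in males against 14.2 ± 1.62 in females (fold change −0.17, SE 0.10, limma adjusted p = 0.436). Isg15 was at 3.60, 4.51, 4.59, 4.25 and 7.31 FPKM in males 1 to 5 and between 3.53 and 5.26 FPKM in females. Male 5 stood above all other rats, and the remaining 4 males lay within the range of the females. Usp18 was lowest, at 1.26 ± 0.410 and 1.20 ± 0.244 FPKM, on 21 to 50 reads per library (fold change −0.04, SE 0.23, limma adjusted p = 0.957).

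The sensors of foreign nucleic acid ranged from the steady Ddx58 to the variable Zbp1. Ddx58 encodes RIG-I, a detector of viral RNA ends, and lay between 6.58 and 8.70 FPKM in all 10 libraries (fold change −0.06, SE 0.09, limma adjusted p = 0.818). Its highest library was 1.32 times its lowest, and its within-sex SD was at percentile 13.6 of tested genes of like level. Ifih1, which encodes the long RNA sensor MDA5, was at 4.45 ± 0.338 FPKM in males against 4.03 ± 0.816 in females. Dhx58, the regulator of both sensors, was at 2.43 ± 0.304 and 2.26 ± 0.495 FPKM. Zbp1, a sensor of Z-form nucleic acid that can trigger cell death, spanned a 5.99-fold range on only 17 to 81 reads. It was at 0.621 to 0.871 FPKM in males 1 to 4, 1.63 FPKM in male 5, 2.16 FPKM in female 2 and 0.362 FPKM in female 4. Its fold change of 0.11 had a 95% interval from −0.73 to 0.96 (SE 0.38, limma adjusted p = 0.929), and without female 2 it was −0.16.

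The direct antiviral effectors split most evenly, with 6 of 10 tested rows negative and a median of −0.05. Without female 4 the median was 0.03 and 3 of the 10 were negative, and without female 5 or male 5 it was 0.0010 or 0.0031, with 5 negative. Gbp2, a guanylate-binding GTPase that attacks the vacuoles of intracellular pathogens, was at 10.7, 7.85, 9.09, 7.16 and 13.6 FPKM in males 1 to 5. In females 1 to 5 it was at 6.87, 7.81, 7.36, 4.06 and 5.77 FPKM. Of the females, 3 lay below every male, and females 2 and 3 lay above male 4. The fold change of −0.59 was the largest of all rows (SE 0.21, 95% interval −1.05 to −0.13, limma p = 0.0163, adjusted p = 0.193), with an exact permutation p of 0.0317. Eif2ak2, which encodes PKR, the kinase that halts translation on viral RNA, was at 9.99, 8.85, 8.57, 9.53 and 10.4 FPKM in males and 9.46, 7.46, 8.39, 8.16 and 7.92 FPKM in females. Only female 1 reached the range of the males, and the fold change was −0.19 (limma adjusted p = 0.337, exact permutation p = 0.0397).

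None of the other effectors had an exact permutation p of 0.05 or less. Bst2, or tetherin, which holds budding virions at the cell surface, was the most abundant effector, at 28.6 ± 5.07 FPKM in males against 27.7 ± 3.55 in females (fold change −0.04, SE 0.13, limma adjusted p = 0.923). Ifit2 was at 4.29 ± 0.421 and 4.18 ± 0.984 FPKM, and Ifit3 at 1.59 ± 0.208 and 1.99 ± 0.468 FPKM, with fold changes of −0.06 and 0.28 (limma adjusted p = 0.898 and 0.488). Both encode proteins that bind viral RNA. The dynamin-like GTPases Mx1 and Mx2 had fold changes of −0.16 and 0.09, and each lay in an overlapping range in both sexes. Rsad2, or viperin, which makes a chain-terminating nucleotide, was at 3.35 ± 0.414 FPKM in males against 3.42 ± 0.469 in females, and was the only tested member highest in female 4. Oasl had a fold change of 0.14 and Oas1a, an oligoadenylate synthetase that activates RNase L, one of −0.08 on 18 to 40 reads per library (SE 0.23, limma adjusted p = 0.913). Of these, Ifit2, Mx1, Bst2, Oas1a and Rsad2 turned the other way when a single library was left out, with all of their fold changes between −0.25 and 0.08 over the 10 libraries left out in turn.

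The antigen processing genes had a median fold change of −0.31, with 6 of 7 rows negative. Without female 4 the median was −0.17, again with 6 of 7 negative. Psmb8, Psmb9 and Psmb10 encode the catalytic subunits that interferon exchanges into the immunoproteasome. Psmb10 was at 34.7, 32.2, 34.6, 27.5 and 43.1 FPKM in males 1 to 5 and at 29.2, 34.1, 28.9, 17.8 and 23.6 FPKM in females 1 to 5. Females 4 and 5 lay below every male and the other 3 did not (fold change −0.38, SE 0.17, limma p = 0.0469, adjusted p = 0.310, exact permutation p = 0.0873). Psmb9 was at 18.3 ± 4.27 and 14.5 ± 4.15 FPKM (−0.36, limma adjusted p = 0.496). Psmb8 was at 9.38, 3.91, 5.004, 4.28 and 7.01 FPKM in males and 6.23, 6.05, 3.56, 2.33 and 3.35 FPKM in females. The groups overlapped over a 4.03-fold range, and the fold change of −0.47 had a 95% interval from −1.15 to 0.21 (limma adjusted p = 0.510).

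Each immunoproteasome subunit was also set against the constitutive subunit it replaces, as a ratio of FPKM within a library. Psmb5, Psmb6 and Psmb7, the constitutive subunits, had fold changes of 0.08, 0.14 and −0.0041 (limma adjusted p = 0.782, 0.613 and 0.991). The ratio of Psmb9 to Psmb6 was 0.176 ± 0.0204 in males and 0.131 ± 0.0457 in females (exact permutation p = 0.0714, 0.214 adjusted over the 3 ratios). The ratio of Psmb10 to Psmb7 was 0.922 ± 0.105 and 0.737 ± 0.246 (exact permutation p = 0.167), and that of Psmb8 to Psmb5 was 0.0665 ± 0.0288 and 0.0475 ± 0.0254 (exact permutation p = 0.310). Female 4 had the lowest of all 3 ratios.

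Tap1 and Tap2 form the pump that carries peptides into the endoplasmic reticulum. Tap1 was at 8.17 ± 1.69 FPKM in males against 6.58 ± 1.47 in females (fold change −0.31, SE 0.18, limma adjusted p = 0.443). Tap2 under ENSRNOG00000000455, in the cluster with Tap1, was at 2.56 ± 0.654 and 3.30 ± 0.441 FPKM. Its fold change of 0.37 was the highest of all rows (SE 0.17, limma adjusted p = 0.321). Tap2 under ENSRNOG00000046031 was at 7.56 ± 1.53 and 7.28 ± 1.69 FPKM, with 4.86 FPKM in male 4 and 4.65 FPKM in female 2 and 6.65 to 8.90 FPKM elsewhere. B2m was at 548 to 743 FPKM in males against 417 to 798 in females, highest in female 2 and lowest in female 5 (fold change −0.21, SE 0.18, limma adjusted p = 0.635).

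The genes of ADP-ribosylation had the largest median, −0.45, and all 3 were negative. Parp9 and Dtx3l encode an enzyme pair that joins ADP-ribosylation to ubiquitin transfer, and Parp14 is a mono-ADP-ribosyltransferase. Parp9 was at 18.7, 18.8, 18.7, 16.1 and 22.1 FPKM in males 1 to 5 and at 16.6, 14.1, 15.6, 10.6 and 12.5 FPKM in females 1 to 5. Only female 1 reached the range of the males, above male 4 alone. The fold change was −0.45 (SE 0.13, 95% interval −0.74 to −0.17, limma p = 0.00489, adjusted p = 0.107; exact permutation p = 0.0159). Its adjusted p lay between 0.0742 and 0.233 over all alternatives. Parp14 was at 9.41, 7.37, 10.7, 9.51 and 8.39 FPKM in males and 8.93, 7.33, 7.54, 4.26 and 4.94 FPKM in females. Females 4 and 5 stood apart below the others (fold change −0.50, SE 0.20, limma p = 0.0285, adjusted p = 0.245; exact permutation p = 0.0476). Dtx3l, divergent from Parp9, was at 3.52 ± 0.248 FPKM in males against 3.12 ± 0.818 in females, with a fold change of −0.20 (SE 0.17, limma adjusted p = 0.612).

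Ifi27 was the member whose spread stood highest, at percentile 93.7 of genes of like level. It was at 131, 127, 121, 83.7 and 132 FPKM in males and 114, 54.8, 163, 119 and 143 FPKM in females, with both the lowest and the highest value in females (fold change −0.07, SE 0.26, limma adjusted p = 0.933). Ifi44, an interferon-induced cytoplasmic protein, was at 3.12 ± 0.560 and 2.66 ± 0.628 FPKM (−0.24, SE 0.19, limma adjusted p = 0.605).

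**Figure D3:**
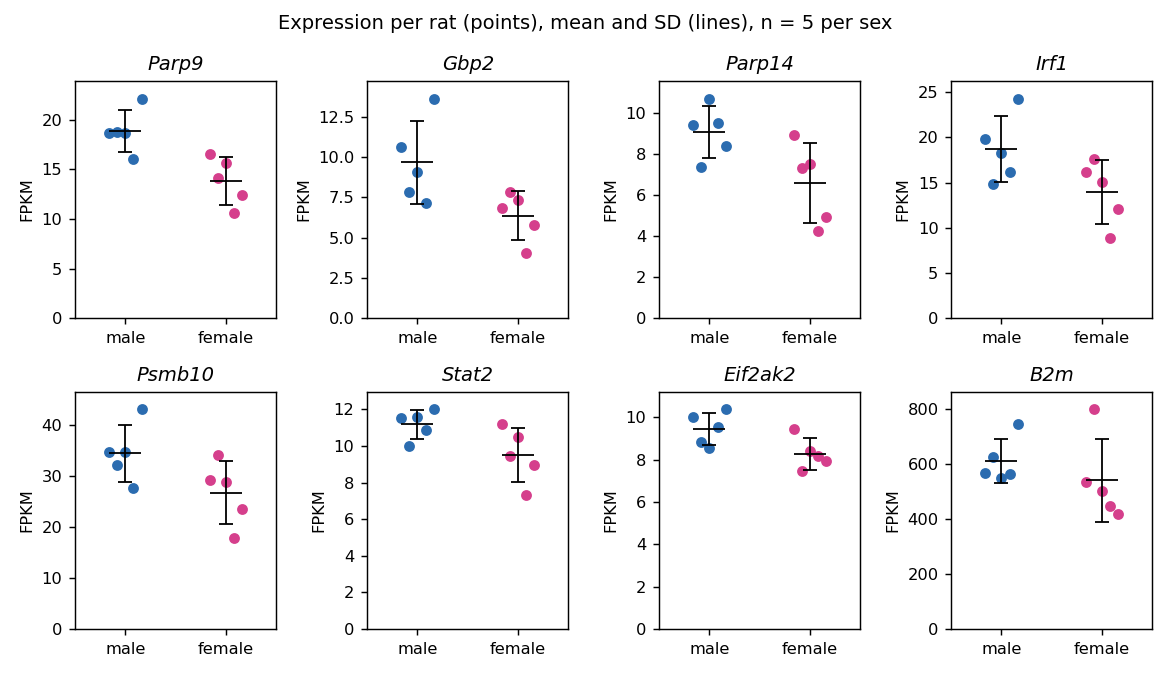
FPKM of 8 interferon response genes in each rat, males in blue and females in pink, with the mean and SD of 5 rats per sex as lines; each vertical axis starts at 0. In every panel the ranges of the sexes overlap, and the female mean is below the male mean, from 13.9 against 18.9 FPKM for Parp9 to 539.5 against 609.6 FPKM for B2m.

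Variation between rats of the same sex was close to that of the whole transcriptome. The median within-sex SD of the 34 rows was 0.29 on the log2 scale, against 0.27 over all genes tested, and 20 of the 34 lay above the middle of genes with a mean FPKM within a factor of 2. High percentiles were those of Ifi27 (93.7), Psmb9 (92.7), Psmb8 (91.8), Irf1 (87.7) and Gbp2 (85.3). Low percentiles were those of Eif2ak2 (13.5) and Ddx58 (13.6).

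Female 4 gave the lowest of the 10 values for 21 of the 34 rows (61.8%), whereas it was lowest for 16.9% of all genes tested. Its median deviation from the mean of the 10 libraries was −0.44 (log2), and 30 rows were below that mean. Female 5 had a median of −0.17, with 27 rows below the mean. Male 5 was highest for 12 rows (35.3%), against 14.3% of all genes, with a median of 0.23. The other 7 libraries had medians from −0.04 to 0.14. At an unadjusted limma p under 0.05, the 5 rows lower in females became 2 without female 4, 2 without female 5, 2 without male 1, 3 without male 3 and 3 without male 5. Over these 5 fits 6.39% to 7.02% of all genes were lower at that p. The rows lower became 7 without female 1, 7 without female 2 and 6 without female 3, against 8.42%, 10.5% and 7.65% of all genes. Without female 4, 2 rows were higher, against 6.42% of all genes. Leaving out female 4 also moved the median of the other interferon-stimulated genes described further on from −0.24 to −0.09, and that of the sensing genes upstream of interferon from −0.19 to −0.11.

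Most single fold changes moved with 1 library or another. Of the 34, 23 turned or moved by over 1.5 times without female 4, and 7 to 11 did so without any other single library. The 7 rows that did neither in any of the 10 fits were Eif2ak2, Gbp2, Ifit3, Parp9, Parp14, Trim25 and Tap2 under ENSRNOG00000000455. Without female 4, the fold changes of the factors Irf1, Stat2, Irf9 and Nlrc5 were −0.29, −0.16, −0.086 and −0.096. Those of Psmb8, Psmb9, Psmb10 and Tap1 were −0.28, −0.17, −0.25 and −0.20, that of Dhx58 was −0.028, that of Ifi44 −0.088 and that of Dtx3l −0.11. Dtx3l was at −0.32 without female 2 and −0.13 without female 5. B2m was at −0.36 without female 2, −0.12 without female 5 and −0.13 without male 5. Ifih1 was at −0.25 without female 2 and −0.084 without female 5. Psmb8 was at −0.29 without male 1 and Nlrc5 at −0.52 without female 1.

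**Figure D4:**
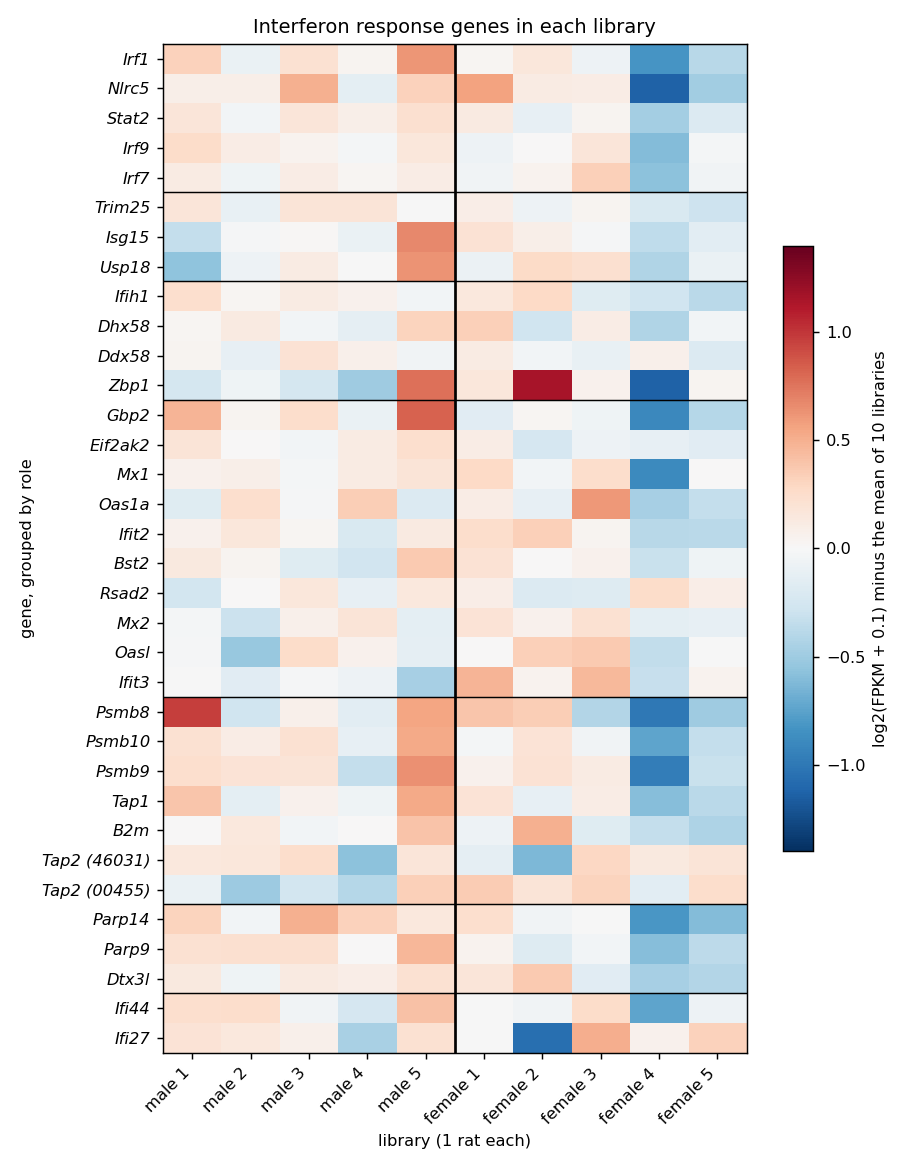
Deviation of log2(FPKM + 0.1) from the mean of the 10 libraries for each tested row, 1 column per rat, with males left and females right of the vertical line; red is above and blue below the mean. The column of female 4 is mostly blue, with 30 of 34 rows below the mean, and male 5 holds the highest value for 12 rows.

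Among markers of immune cells, the leukocyte and lymphocyte lists also had their lowest median deviation in female 4 and their highest in male 5. Of 12 leukocyte markers, mostly of macrophages, 11 had a negative fold change (median −0.46, 0 past the adjusted threshold by limma). Of the 12, 2 were lower at an unadjusted p under 0.05, against 8.07% of all genes. The summed level of the 12 was 655 to 1378 FPKM in males against 389 to 890.0 in females. None was at 0, and Ptprc and Csf1r were read in every library. Female 4 was lowest for 11 of the 12 and male 5 highest for 9. Of 16 markers of T, NK and B lymphocytes, 14 had a negative fold change (median −0.48, 0 past the adjusted threshold). Their sums were 43.4 to 89.5 FPKM in males against 22.9 to 72.6 in females, and 3 markers were lower at an unadjusted p under 0.05. The median deviations of these lists were −1.04 and −1.29 in female 4 and 0.78 and 0.97 in male 5. They were 0.27 and 0.50 in female 2, where the median of the interferon response genes was 0.04. Neutrophil markers summed to 1.32 to 14.3 FPKM in males against 0.750 to 3.99 in females, with Mpo at 0 to 3 reads. Of the 3 tested, 1 was lower at an unadjusted p under 0.05. All 3 tested markers of plasmacytoid dendritic cells, which make type I interferon, had a negative fold change, and 0 passed the adjusted threshold. At an unadjusted p under 0.05, 1 was lower. Without female 4, 3 of 4 tested ones were negative, and without female 5 or male 4, 2 of 3. Without female 4 the medians of the leukocyte and lymphocyte lists were −0.28 and −0.24, and without male 5 that of the lymphocyte list was −0.31. Fold changes of markers of the tubule and of podocytes were mostly positive. All 6 collecting duct markers had a positive fold change (median 0.41, 0 past the adjusted threshold). So did 4 of 4 of the thick ascending limb (0.25), both tested ones of the distal convoluted tubule (0.42) and 4 of 4 of podocytes (0.26). At an unadjusted p under 0.05, 4, 1, 2 and 1 markers of these lists, in this order, were higher, against 7.67% of all genes. Proximal tubule markers were positive for 4 of 6 (median 0.18, with Cubn past the adjusted threshold). Their median deviation was 0.45 in female 4, 0.34 in female 5, −0.61 in male 5 and, lowest of the 10 libraries, −0.69 in female 2. Without male 5 the median fold change of the proximal tubule list was −0.09 with 2 of 6 positive, without female 4 it was 0.06, without female 5 0.11, and without female 2 and male 3 it was 0.36 and 0.31. Endothelial markers were positive for 4 of 7 (median 0.03, between −0.0029 and 0.11 with each library left out in turn, with Vwf past the adjusted threshold). The part of these cells in the levels of the interferon response genes was not tested.

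**Figure D5:**
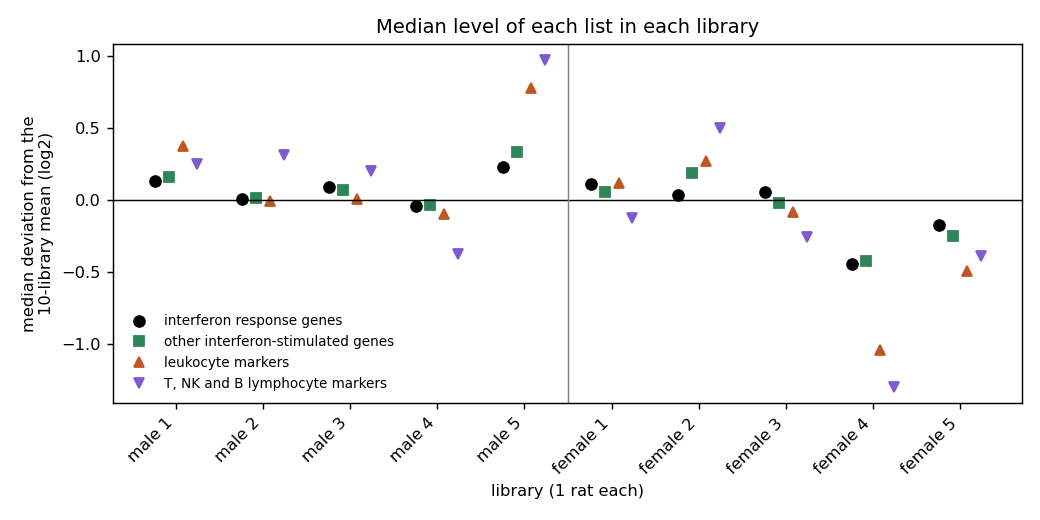
Median deviation from the 10-library mean (log2) in each rat for the interferon response genes (black circles), other interferon-stimulated genes (green squares), leukocyte markers (orange triangles) and T, NK and B lymphocyte markers (purple triangles). In female 4 the 4 medians are −0.44, −0.42, −1.04 and −1.29, and in male 5 they are 0.23, 0.33, 0.78 and 0.97.

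The rest of the pathway was read from lists. Of 12 interferon ligand genes 9 were found, none had more than 3 reads in a library, and Ifnb1 with 5 others was at 0 in all 10. Ifng, made by T and NK cells, had 0 to 3 reads in each library. The receptors, kinases and feedback regulators gave 12 negative fold changes of 15, with a median of −0.11 (−0.07 without female 4). None passed the adjusted p, with 4 lower and 1 higher at an unadjusted p under 0.05, against 8.07% and 7.67% of all genes. Jak2, a kinase of the interferon gamma receptor, was at 10.5 ± 1.03 FPKM in males against 14.5 ± 2.24 in females, and every female lay above every male (fold change 0.46, SE 0.12, limma adjusted p = 0.0730). Ifnlr1, the interferon lambda receptor, was at 1.99 ± 0.197 FPKM in males against 1.42 ± 0.421 in females (−0.50, limma adjusted p = 0.247).

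The sensing genes upstream of interferon gave 14 negative fold changes of 17, with a median of −0.19 (−0.29 without female 2). None passed the adjusted p, with 3 lower and 1 higher at an unadjusted p under 0.05, against 8.07% and 7.67% of all genes. Irf5, a factor of myeloid and B cells downstream of Toll-like receptors, was at 7.60 ± 0.313 FPKM in males against 5.42 ± 1.22 in females, with every female below every male (−0.51, SE 0.14, limma adjusted p = 0.101). Mavs, the mitochondrial adaptor of the RNA sensors, had a fold change of 0.29 and the kinase Ikbke one of −0.40 (limma adjusted p = 0.162 and 0.164).

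Of 48 other interferon-stimulated genes, 39 had a negative fold change (median −0.24) and 1 passed the adjusted p, in the opposite direction. At an unadjusted p under 0.05, 8 were lower and 1 was higher, against 8.07% and 7.67% of all genes. Without female 4, 33 of the 48 were negative. Samd9l (chr4:31229913-31299132), which encodes a restriction factor that limits translation and growth, rose in females by 0.88 (SE 0.12, limma adjusted p = 0.00252), short of the fold change threshold of 1. It was at 9.47, 8.24, 8.25, 8.68 and 9.20 FPKM in males 1 to 5 and at 20.2, 15.96, 13.2, 18.4 and 14.2 FPKM in females 1 to 5. All females lay above all males, and female 4, lowest for most of the members, was the second highest here. Igtp, an immunity-related GTPase, was at 13.8 ± 0.896 FPKM in males against 10.4 ± 1.32 in females, with separate ranges (−0.42, SE 0.10, limma adjusted p = 0.0581). Irf8, a factor of the macrophage and dendritic lineages, was at 13.8 ± 2.45 and 8.89 ± 2.50 FPKM (−0.66, limma adjusted p = 0.137).

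Partners of MHC class I and II presentation gave 11 negative fold changes of 16, with a median of −0.15. None passed the adjusted p, with 3 lower at an unadjusted p under 0.05, against 8.07% of all genes. The median was −0.06 with 9 of 16 negative without male 5, and −0.25 without male 4. Ciita, the class II transactivator, had a fold change of −0.41 and Tapbpl, a peptide editor, one of −0.50 (limma adjusted p = 0.283 and 0.289). Psme1, a proteasome activator subunit, was on 0 to 5 reads per library, with a fold change of −0.997 (limma adjusted p = 0.254). The genes with a response element match had a median fold change of −0.19, with 14 of 17 negative, and those without a match one of −0.23, with 7 of 8 negative. Without female 4 these medians were −0.11 and −0.15, without female 5 −0.13 and −0.23, and without female 2 −0.247 and −0.243. Tap2 was taken here under the identifier in the cluster with Tap1, and the difference between the 2 sets was not tested.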

How the data were processed

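Poly-A RNA from the kidneys of 10 PCK rats, 5 of each sex, was measured, and samples were grouped by the sex in the labels. The authors deposited FPKM per gene, in 1 table of 32545 genes. According to the methods Novogene mapped the reads with HISAT2 to Ensembl Rnor_6.0, and the submitters' processing notes also name fastp, HISAT2 2.0.5, StringTie 1.3.3b and featureCounts 1.5.0-p3. Dividing FPKM by the worth of 1 read at the deposited length gave whole reads for 100% of values (tolerance 0.01), from which depth was taken. The deposited values already carry a median-ratio scaling, with a factor of 1.01 in every library. Reads carry no molecular identifiers, so counts of reads cover counting error only.

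limma 3.58.1 (R 4.3.3, lmFit and eBayes with trend) was run on log2(FPKM + 0.1) over the 17631 genes whose mean reached 0.1 FPKM, with Benjamini-Hochberg adjustment over all of them. The study tested its counts with DESeq2, which was not run here: the deposited FPKM were tested with limma, and the recovered reads with limma-voom as an alternative. Single genes had exact permutation tests over 252 splits, two-sided (Python 3.11.15, numpy 2.4.6, pandas 2.3.3, scipy 1.17.1). Litter and day of collection were not in the fit, so p-values measure the spread between these rats, whatever it comes from. The members and lists were chosen with earlier results of these data known, so no p was adjusted over a list of genes and no set test was run. The p-values of the 3 subunit ratios were adjusted among themselves. All members are accounted for, with full statistics for those with an unadjusted p under 0.05 or the highest or lowest level in their role. From the pathway lists the text names up to 3 genes with the lowest p, and 1 gene that this rule names is not reported here. The main limma fit and the exact permutation test were run on simulated data as a check of the code. Alternatives were pseudocounts of 1 and 0.01, other filters, median-ratio, total read and quantile scaling, eBayes without trend or robust, a replicate block, limma-voom on recovered reads, and fits without each library in turn. Same-numbered males and females did not deviate together, so the numbers were not taken as pairs. RefSeq promoters of GRCr8 were matched by symbol.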

Additional observations from a re-analysis of the deposited data

Results flagged for a closer look

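Within each sex, the highest or lowest rat was set against the others by its gap to the nearest of them, divided by the range of the 5 rats (limit 0.71). Of 76 such tests 4 passed, all in males, and chance passes about 1 in 20. Isg15 was at 7.31 FPKM in male 5 on 144 reads, and at 3.60 to 4.59 FPKM in the other males. Zbp1 was at 1.63 FPKM in the same rat, on 65 reads, with the other males at 0.621 to 0.871 FPKM. Ifi27 was at 83.7 FPKM in male 4 and at 121 to 132 FPKM in the others. Tap2 under ENSRNOG00000046031 was at 4.86 FPKM in male 4, on 275 reads, and at 8.03 to 8.60 FPKM in the other males.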

How the results depend on the processing

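No member passed the adjusted threshold in any of the 21 alternative fits, where the lowest adjusted p was 0.0742 (limma, or limma-voom for the recovered reads). Of 713 fold changes of members under an alternative, 20 turned direction. A pseudocount of 1 gave 65 genes higher and 72 lower in females, against 109 and 123. Of the pathway genes, 2 passed at a filter of 1 FPKM and 2 with limma-voom, Samd9l and Igtp in both, against 1. Scaling by total reads left 2 members (14.4% of all genes) at an exact permutation p up to 0.05, against 4 (14.8%), and turned Rsad2 to −0.046, while limma-voom turned it to −0.035. Both moved the median of all genes to −0.08. Quantile normalization gave 2 members higher at an unadjusted limma p under 0.05 (8.11% of all genes), against 0, and turned Ifit2 (0.022), Oas1a (0.030) and Usp18 (0.058). eBayes without trend left 3 members lower at that p (8.18% of all genes), against 5. The causes were not tested.

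With the replicate number as a block, 4 members were lower (8.01% of all genes) and 1 higher (7.05%) at an unadjusted limma p under 0.05, 89 genes were called higher and 87 lower, and again 0 members were called. Deviations of same-numbered libraries correlated between −0.10 and 0.07, and 1 of 10 libraries was closest to its own number, so the samples share only a number.

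Leaving out each library in turn gave 2 to 7 members lower (6.39% to 10.5% of all genes) and 0 to 2 higher (6.17% to 9.3%) at an unadjusted limma p under 0.05. It gave 0 to 2 members with separate ranges lower (2.91% to 4.52% of all genes) and 0 to 1 higher (2.88% to 4.16%), 1 to 6 with an exact permutation p of at most 0.05 (12.1% to 17.8%), and 1 to 3 pathway genes past the adjusted p. Samd9l passed in each of these fits, joined by Cxcl11 and Jak2 without female 2 and by Irf5 without female 3. Fold changes that crossed 0 were those of Irf7 (−0.21 to 0.013), Isg15 (−0.19 to 0.061), Ifit2 (−0.15 to 0.027), Mx1 (−0.25 to 0.040), Oas1a (−0.24 to 0.026), Rsad2 (−0.034 to 0.079), Tap2 under ENSRNOG00000046031 (−0.21 to 0.091), Bst2 (−0.11 to 0.046), Usp18 (−0.19 to 0.11), Ifi27 (−0.21 to 0.18) and Zbp1 (−0.16 to 0.41). Female 2, female 4, female 5, male 1 and male 5 were the libraries whose removal turned one of them. Depth limits Oas1a, Usp18 and Zbp1, with 18, 21 and 17 reads in their lowest library, and Ifit1, which had 4 reads at most.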

Other observations

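Socs3, which is induced by cytokines and blocks JAK kinases, had the largest fold change in size among the receptor and JAK-STAT genes and is named here after its values were seen. It was at 44.1, 39.4, 31.9, 46.2 and 29.5 FPKM in males 1 to 5 and at 24.9, 51.3, 24.3, 3.54 and 12.5 FPKM in females 1 to 5. Females 1, 3, 4 and 5 lay below every male, female 2 lay above every male, and the fold change was −1.15 (SE 0.56, limma p = 0.0655, adjusted p = 0.357, exact permutation p = 0.135). Without female 4 the fold change was −0.59.

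Ifi35, an interferon-induced leucine zipper protein, was also named after its values were seen. It was at 20.9 ± 1.03 FPKM (SD, n = 5) in males and 17.9 ± 1.29 FPKM in females, and every female lay below every male (fold change −0.23, SE 0.07, limma adjusted p = 0.150). Oas1k, an oligoadenylate synthetase gene of the same list and likewise chosen afterwards, lay the other way round, at 0.310 ± 0.0465 FPKM in males against 0.403 ± 0.0569 in females, with every female above every male on 23 to 41 reads per library (fold change 0.30, SE 0.20, limma adjusted p = 0.534). Of the 48 genes of that list, 2 had separate ranges lower in females (Ifi35 and Igtp) and 2 higher (Oas1k and Samd9l), where 2.6% and 2.5% of all genes did.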
